A study of Mus musculus with 6 samples.

Results

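The genes described here are 10 mouse genes of iron uptake, storage and sensing, *Tfrc*, *Fth1*, *Ftl1*, *Slc40a1*, *Slc11a1*, *Slc11a2*, *Aco1*, *Ireb2*, *Hmox1* and *Ncoa4*, out of 24445 genes in the count table. They were named by function, and the RefSeq transcript standing for each gene was selected on its total count over both groups together, the largest being taken, so that totals, and not the genotype difference, chose the transcript. The genes were nevertheless listed with earlier results of these data known, and the number of them that changed is therefore a description from which nothing is read. RNA was sequenced from bone marrow-derived macrophages (BMDMs) of female mice, which are marrow precursors grown into macrophages over 7 days and here exposed to 100 U/mL of IL-4 during 24 h. There were 3 libraries from AclyM-KO cells, in which Cre driven by *Lyz2* removes exon 9 of a floxed *Acly*, and 3 from Ctrl cells, which carry the same floxed allele. IL-4 was given to both groups, and untreated cells were not analysed here. The study describes the replicates as biological in one place and as technical replicates from pooled mice in another, so the p-values measure the spread between these libraries and not between mice. *Acly*, the gene of ATP citrate lyase, checked the labels, with 4917, 3925 and 4606 counts in the 3 libraries of Ctrl cells, against 2140, 2078 and 1978 for AclyM-KO cells. Its log2 fold change was −1.27 (SE 0.0533, adjusted p = 5.22e-10, edgeR).

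Cells take up transferrin-bound iron through the transferrin receptor and store it in ferritin, a shell built of heavy and light subunits, and macrophages give iron back to the plasma through ferroportin. The amounts of these proteins are set in large part after transcription. When iron is low, the iron regulatory proteins IRP1 and IRP2 bind iron-responsive elements, which are short RNA hairpins with a loop of fixed sequence. Binding in a 3′ UTR protects an mRNA such as that of the transferrin receptor, whereas binding in a 5′ UTR blocks translation of ferritin and ferroportin mRNAs.

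Because IRP1 and IRP2 bind these hairpins, the transcripts of the 10 genes were searched for them, and 5 genes had a matching stretch. The search read the transcript strand only, for a C followed by any 5 bases, the loop letters CAGTGN and a further run of bases, where the last loop base is not G and the 5 bases before the 6-base loop pair with the 5 after it, G-T pairs included; a single extra base in the second arm was allowed as a separate class. Sequences are from GENCODE M21 transcripts on GRCm38, written with T for U, and capitals mark the loop. The *Tfrc* transcript held 4 matches in its 3′ UTR, all on the plus strand of chromosome 16.
Tfrc, chr16:32631219-32631247: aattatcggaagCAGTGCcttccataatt
Tfrc, chr16:32631598-32631626: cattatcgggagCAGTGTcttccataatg
Tfrc, chr16:32631663-32631691: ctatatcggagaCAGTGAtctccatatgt
Tfrc, chr16:32631710-32631738: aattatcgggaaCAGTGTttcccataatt

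The ferritin genes and *Slc40a1* each held a single match, in the 5′ UTR. *Fth1* lies on the plus strand and the other 2 on the minus strand.
Fth1, chr19:9982732-9982760: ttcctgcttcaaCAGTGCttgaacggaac
Ftl1, chr7:45459779-45459807: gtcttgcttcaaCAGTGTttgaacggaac
Slc40a1, chr1:45925465-45925493: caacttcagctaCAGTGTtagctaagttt

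*Slc11a2* had a match with 1 extra base in the 3′ UTR of a transcript other than the one kept, on the minus strand.
Slc11a2, chr15:100395152-100395181: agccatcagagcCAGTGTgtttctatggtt

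The transcripts of *Slc11a1*, *Aco1*, *Ireb2*, *Hmox1* and *Ncoa4* held no such stretch. Of 11766 kept transcripts of tested genes that could be searched, 64 (0.544%) had a UTR match without an extra base, 9 of them in the 5′ UTR and 55 in the 3′ UTR. A match here is a stretch of letters, not a measured binding site.

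**Figure D1:**
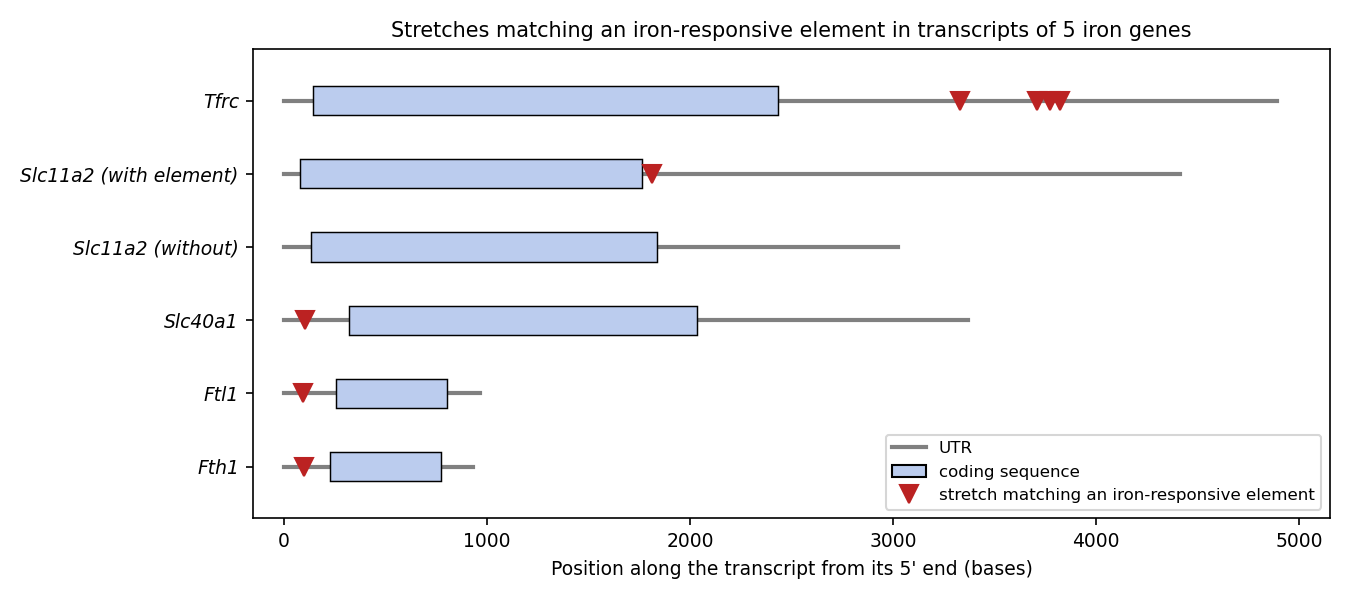
Maps of the transcripts of 5 iron genes, drawn to scale in bases from the 5′ end, with UTRs as lines, coding sequence as boxes and matching stretches as triangles. The 4 matches of Tfrc lie in its 3′ UTR, those of Fth1, Ftl1 and Slc40a1 in the 5′ UTR, and only 1 of the 2 Slc11a2 transcripts drawn has a match.

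The question was how mRNA of the iron genes differed between IL-4-treated AclyM-KO and Ctrl macrophages. *Tfrc*, *Fth1*, *Ftl1* and *Slc11a2* were higher in AclyM-KO cells and *Slc40a1* was lower, whereas the other 5 genes did not pass the test. Gene differences were tested with edgeR over 12023 genes with Benjamini-Hochberg adjustment, and a gene was called when its adjusted p was under 0.05 and its log2 fold change was beyond 0.58. By this rule 1 of the 10 was called higher and 1 lower, beside 2.98% and 2.57% of all tested genes, or 5.55% in either direction. By adjusted p alone 4 were higher and 1 lower, where 24.9% of all tested genes passed in either direction. The median log2 fold change was 0.09 for the 10 genes and 0.00 for all tested genes, with 8 of the 10 above 0 and 2 below. The 5 genes that passed by adjusted p were the same 5 with a matching hairpin stretch in at least 1 transcript. For *Slc11a2* the tested transcript held no match. The 10 genes were listed with earlier results of these data known, so nothing is read from this overlap. Among all genes with a UTR match without an extra base, a set that holds 4 of these genes, 12 were higher and 8 were lower by adjusted p, which is 31.2% of them. Allowing 1 extra base and a match at any place, 372 genes had a stretch. Of these, 25.5% passed by adjusted p, close to the share of all tested genes. Both sets were searched on kept transcripts only. *Slc11a2*, whose match lies on another transcript, is therefore in neither.

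**Figure D2:**
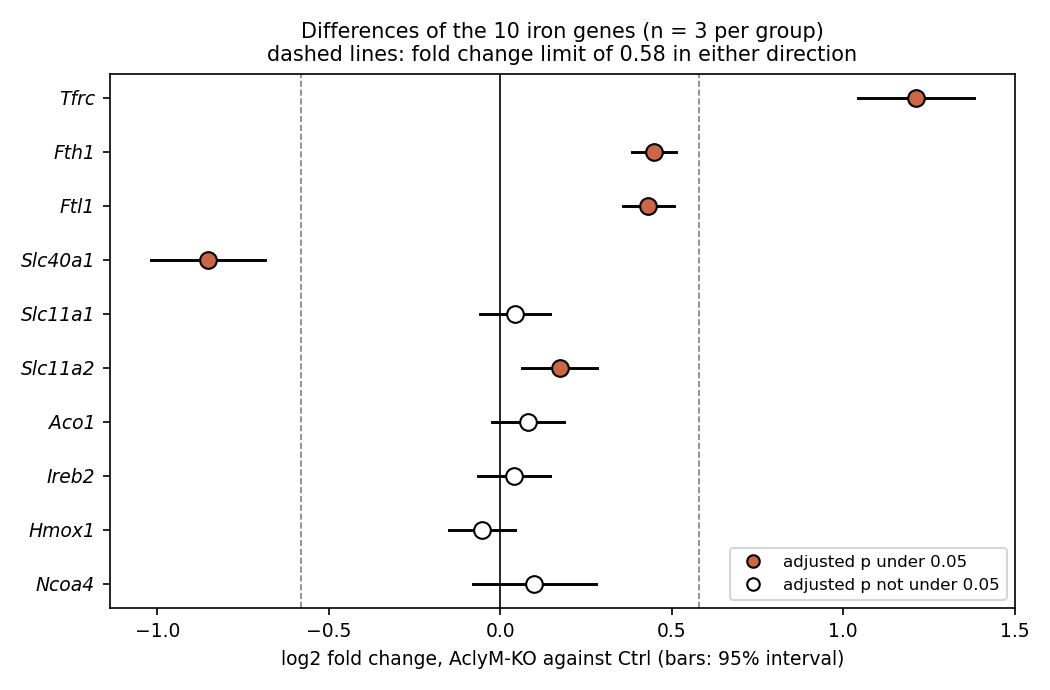
log2 fold change of each of the 10 iron genes, AclyM-KO against Ctrl, with its 95% interval (n = 3 libraries per group), filled where the adjusted p was under 0.05. Tfrc at 1.21 and Slc40a1 at −0.85 lie beyond the dashed limits of 0.58, Fth1 at 0.45 and Ftl1 at 0.43 lie inside them, and the intervals of 5 genes cross 0.

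*Tfrc* encodes transferrin receptor 1, the main entry route of transferrin-bound iron, and lies at chr16:32608920-32632794. In CPM, which are counts scaled to a common library size after TMM normalization, it stood at 1761, 1264 and 1528 for Ctrl and at 3437, 3440 and 3674 for AclyM-KO. Every AclyM-KO library was above every Ctrl library, and the spread was wider in Ctrl, where the second library was lowest. The mean rose from 1518 ± 249 to 3517 ± 136 CPM (SD, n = 3), which is 2.32-fold and a log2 fold change of 1.21 (SE 0.0794, 95% interval 1.04 to 1.38, adjusted p = 5.79e-08). The difference ranked 21 of all tested genes by p. Without the second Ctrl library the log2 fold change was 1.09, and without the first it was 1.33. In the order of genes by counts, *Tfrc* moved from places 51, 77 and 57 in the Ctrl libraries to places 16, 16 and 12 in the AclyM-KO libraries.

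*Slc11a2* encodes DMT1, which carries ferrous iron across endosomal and plasma membranes, and lies at chr15:100387898-100425072. Its CPM was 100.1, 100.7 and 99.8 in Ctrl and 119.5, 110.9 and 108.7 in AclyM-KO. The groups did not overlap, the Ctrl values being nearly equal. The log2 fold change was 0.17 (SE 0.0514, 95% interval 0.06 to 0.28, adjusted p = 0.0223), a rise inside the fold change limit. The adjusted p passed 0.05 when the third Ctrl library (0.0568), the first AclyM-KO library (0.132) or the second (0.0587) was left out. On the transcript that holds the hairpin match, 1077, 907 and 940 reads were counted for Ctrl, against 1259, 1260 and 1149 for AclyM-KO. Its counts were 0.727, 0.737 and 0.715 of those on the kept transcript in Ctrl and 0.719, 0.731 and 0.724 in AclyM-KO, which overlap. Reads from shared exons are counted on both transcripts, so these ratios are not isoform amounts. *Slc11a1* encodes NRAMP1, the metal transporter of the phagosome, and lies at chr1:74375195-74386062. Its CPM was 150.1, 147.3 and 155.7 in Ctrl and 151.8, 157.7 and 157.5 in AclyM-KO, with overlap, and its log2 fold change was 0.04 (95% interval −0.06 to 0.15, adjusted p = 0.556).

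Ferritin mRNAs rose by a similar, smaller factor. *Fth1*, the heavy subunit with the ferroxidase centre, lies at chr19:9980598-9985098, and *Ftl1*, the light subunit, at chr7:45457944-45459884. *Fth1* stood at 6404, 6233 and 5963 CPM in Ctrl and at 8438, 8358 and 8574 CPM in AclyM-KO. *Ftl1* stood at 1892, 1811 and 1790 CPM in Ctrl and at 2412, 2469 and 2532 CPM in AclyM-KO. For both genes the groups were well apart and the spread within each was small. The mean of *Fth1* rose from 6200 ± 222 to 8456 ± 109 CPM (SD, n = 3), 1.36-fold (log2 0.45, SE 0.0295, adjusted p = 5.79e-08). The mean of *Ftl1* rose from 1831 ± 54.1 to 2471 ± 59.6 CPM (SD, n = 3), 1.35-fold (log2 0.43, SE 0.0354, adjusted p = 4.94e-07). Both differences were inside the fold change limit, and 95% intervals were 0.39 to 0.51 for *Fth1* and 0.36 to 0.51 for *Ftl1*. The ratio of *Fth1* to *Ftl1* counts was 3.38, 3.44 and 3.33 in Ctrl and 3.50, 3.38 and 3.39 in AclyM-KO, so the groups overlapped in the balance of the subunits' mRNAs. The kept *Fth1* row is classed as noncoding in RefSeq, although the GENCODE transcript paired with it has an annotated coding sequence. It shares nearly all its reads with the coding RefSeq row, which gave a log2 ratio of means of 0.45. Both genes have processed copies in the genome that could take or give reads, and 36.7% of the exonic bases of *Ftl1* lie under exons of *Gm10252* on the other strand. On the same strand as *Ftl1*, *Gm22133* covers 11.3% of its exonic bases. *Xist* and its antisense gene *Tsix* had the same counts in 5 of 6 libraries, which shows that strand was not used in counting. *Ftl1* counts are therefore uncertain for the processed copies and both overlaps, and *Fth1* counts for the processed copies alone. Of the other 8 genes only *Slc11a2*, with 3.11% of its exonic bases under *Gm5475*, had such an overlap.

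*Slc40a1* encodes ferroportin, the only known iron exporter of mammalian cells, and lies at chr1:45908068-45926523. It stood at 78.8, 65.8 and 71.2 CPM in Ctrl and at 37.0, 38.2 and 44.6 CPM in AclyM-KO. Every AclyM-KO library was below every Ctrl library. The mean fell from 71.9 ± 6.5 to 39.9 ± 4.11 CPM (SD, n = 3), to 0.555 of the Ctrl mean, with a log2 fold change of −0.85 (SE 0.0782, 95% interval −1.02 to −0.69, adjusted p = 1.51e-06). Receptor and exporter thus moved in opposite directions, and the count of *Tfrc* divided by that of *Slc40a1*, a ratio that needs no library scaling, was 22.4, 19.2 and 21.5 in Ctrl and 93.0, 90.2 and 82.4 in AclyM-KO. The ratio of *Tfrc* to *Fth1* counts was 0.275, 0.203 and 0.256 in Ctrl and 0.407, 0.412 and 0.428 in AclyM-KO, so *Tfrc* also rose relative to ferritin. In bulk RNA, a change in the number of cells expressing a gene and a change in its RNA per cell cannot be told apart.

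**Figure D3:**
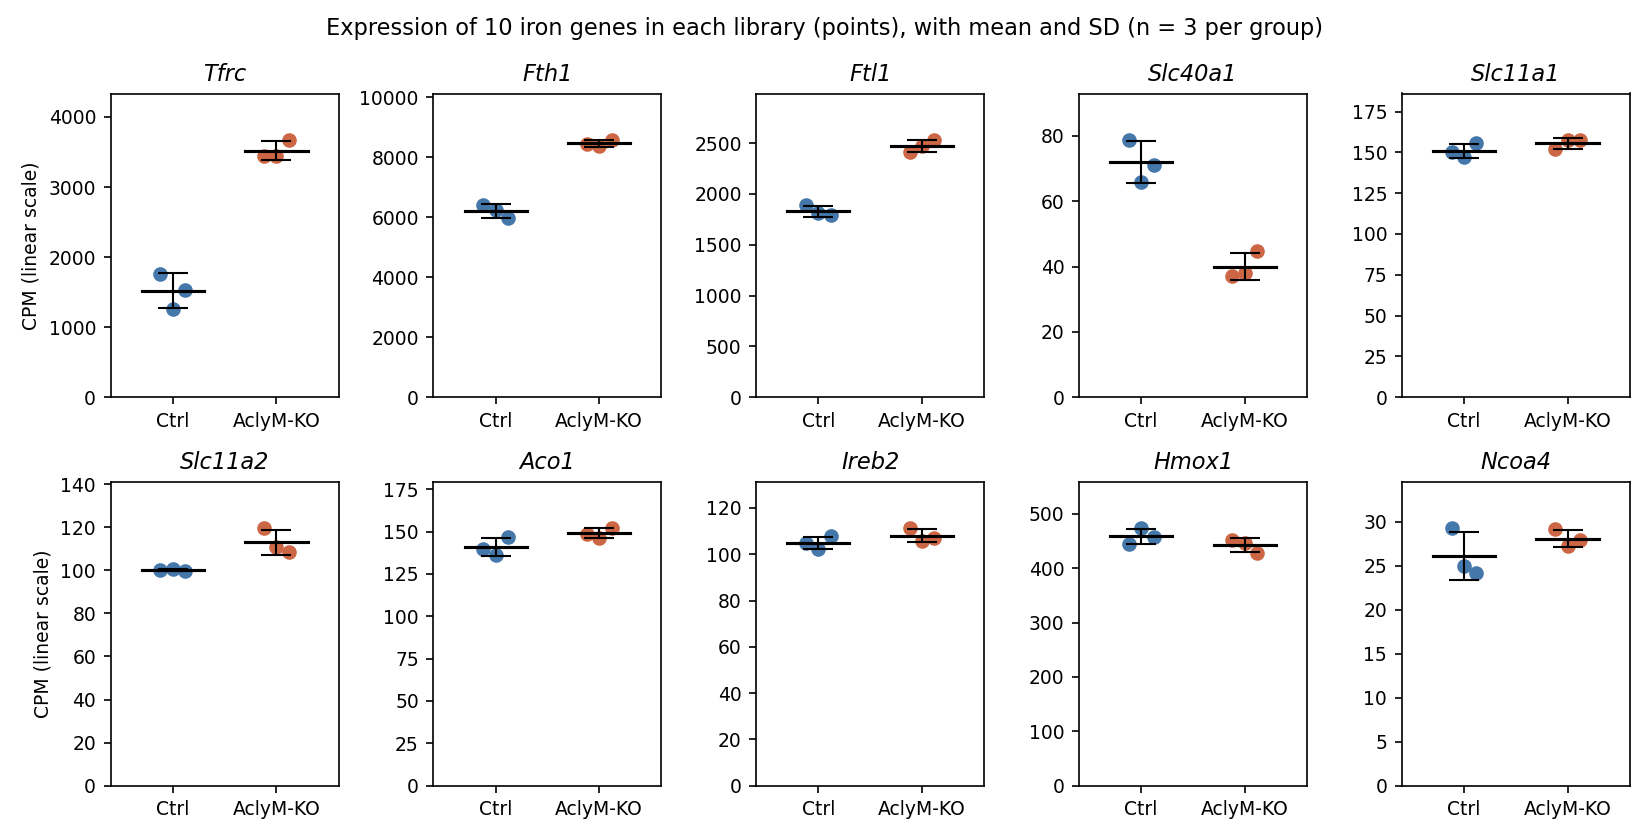
CPM of each of the 10 iron genes on linear axes that start at 0, with 1 point per library and the mean and SD of each group as bars (n = 3). The Ctrl and AclyM-KO points do not overlap for Tfrc, Fth1, Ftl1, Slc40a1 and Slc11a2, and overlap for the other 5 genes.

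The genes of the iron sensors did not pass the test. *Aco1*, at chr4:40143081-40198338, encodes IRP1, which carries an iron-sulphur cluster and acts as cytosolic aconitase when iron is plentiful. It stood at 139.7, 136.1 and 146.6 CPM in Ctrl and at 148.6, 146.1 and 151.9 CPM in AclyM-KO (log2 0.08, 95% interval −0.02 to 0.19, adjusted p = 0.259). *Ireb2*, at chr9:54863789-54912530, encodes IRP2, which is degraded when iron is plentiful. It stood at 104.9, 102.4 and 107.7 CPM in Ctrl and at 111.2, 105.8 and 106.9 CPM in AclyM-KO (log2 0.04, 95% interval −0.06 to 0.14, adjusted p = 0.604). The groups overlapped for both, and the ratio of *Ireb2* to *Aco1* counts was 0.751, 0.752 and 0.734 in Ctrl and 0.748, 0.724 and 0.704 in AclyM-KO. IRP1 and IRP2 are regulated largely at the protein level, which was not measured.

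Genes that release iron inside the cell did not pass the test either. *Hmox1*, at chr8:75093621-75100589, encodes haem oxygenase 1, which frees iron from haem, and its CPM was 444.9, 473.3 and 457.1 in Ctrl and 452.5, 446.1 and 427.5 in AclyM-KO. *Ncoa4*, at chr14:32159865-32179855, encodes the receptor that delivers ferritin to the lysosome, and its counts were 433, 305 and 319 for Ctrl against 427, 423 and 407 for AclyM-KO, or 26.1 ± 2.73 and 28.1 ± 0.971 CPM (SD, n = 3). The groups overlapped in CPM for both genes. The log2 fold change was −0.05 for *Hmox1* (95% interval −0.15 to 0.04, adjusted p = 0.436) and 0.10 for *Ncoa4* (95% interval −0.08 to 0.28, adjusted p = 0.428). Over the 10 genes, 5 had groups that did not overlap in CPM, beside 40.2% of all tested genes.

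The 10 genes together held 1.12%, 1.04% and 1.04% of all counts in Ctrl and 1.52%, 1.53% and 1.56% in AclyM-KO. Nearly all of this came from *Tfrc*, *Fth1* and *Ftl1*, which held 1.01%, 0.936% and 0.935% in Ctrl and 1.42%, 1.42% and 1.46% in AclyM-KO. A scale of CPM per kilobase of transcript allows levels of different genes to be compared. For *Fth1* the length was that of its coding RefSeq row. The order in Ctrl was led by *Fth1* (6674 ± 239) and *Ftl1* (1892 ± 55.6). *Tfrc* (310 ± 50.9) and *Hmox1* (292 ± 9.08) followed and did not differ beyond their spread, and *Slc11a1* stood at 65.2 ± 1.85. *Aco1* (36.7 ± 1.39), *Slc11a2* (33.1 ± 0.151), *Slc40a1* (21.4 ± 1.93), *Ireb2* (18.2 ± 0.46) and *Ncoa4* (6.43 ± 0.671) came last. In AclyM-KO cells the per-kilobase level of *Tfrc* was 719 ± 27.8 and so stood clear of *Hmox1* at 282 ± 8.28, whereas *Slc40a1* at 11.8 ± 1.22 stood below *Ireb2* at 18.7 ± 0.495.

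The wider pathway was covered by 7 lists with 80 further iron genes, of which 68 passed the filter on low counts. By adjusted p, 20 of the 68 were higher, 6 were lower and 42 did not pass, and their median log2 fold change was 0.12. Of all tested genes, 12.4% were higher and 12.6% lower by adjusted p. With the fold change limit 3 were called higher, *Cp*, *Epas1* and *Cdc42bpa*, and 0 lower, beside 2.98% and 2.57% of all tested genes. DESeq2 and limma-voom also gave 3 and 0, and at an unadjusted p under 0.05 in edgeR 24 were higher and 9 lower. Each of the 68 differences was smaller in size than those of *Tfrc* and *Slc40a1*.

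In the list of iron export, oxidation and haem export, 3 of 6 genes were tested and all passed by adjusted p, 2 higher and 1 lower. The share passing in either direction was 24.9% among all tested genes. *Cp* encodes ceruloplasmin, the ferroxidase that loads exported iron onto transferrin, and its counts were 285, 201 and 242 for Ctrl against 384, 477 and 438 for AclyM-KO. Its CPM rose from 18.0 ± 1.44 to 29.0 ± 2.42 (SD, n = 3; log2 0.68, SE 0.0905, adjusted p = 5.98e-05, edgeR), opposite in direction to the exporter *Slc40a1*. The haem exporter gene *Flvcr1* rose (log2 0.17, adjusted p = 0.0222), and *Abcg2*, which encodes an efflux pump that also carries porphyrins, fell (log2 −0.44, adjusted p = 0.0256). Without single libraries named in the closing section, the adjusted p of these last genes rose to as much as 0.107 and 0.101.

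Among genes of iron and haem uptake, 9 of 16 were tested, with a median of 0.09. By adjusted p, 1 was higher and 2 were lower. The shares over all tested genes were 12.4% and 12.6%, or 24.9% in either direction. *Cd163*, the scavenger receptor for haemoglobin-haptoglobin, was the gene that rose (57.6, 58.2 and 58.1 CPM against 77.5, 82.6 and 78.9; log2 0.46, adjusted p = 1.19e-05, edgeR); it was named after its values were seen. *Hfe*, whose protein binds the transferrin receptor, fell (log2 −0.25, adjusted p = 0.00313), and so did *Lrp1*, a receptor for haem-haemopexin (log2 −0.55, adjusted p = 0.00982). The size of the fall in *Lrp1* rested on its second Ctrl library, at 1411 CPM beside 823.5 and 864.3 in the others. Without that library the log2 fold change was −0.26 and still passed (adjusted p = 0.000359, edgeR). Without the second AclyM-KO library the adjusted p of *Lrp1* was 0.0677. *Slc48a1*, a haem transporter gene, had a log2 fold change of 0.13 (adjusted p = 0.0972), and *Steap3*, which encodes the endosomal ferrireductase, −0.14 (adjusted p = 0.0724).

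In the list of further transcripts with a known iron-responsive element, 4 of 5 genes were tested, 2 were called higher and the median was 0.44. Of all tested genes, 2.98% were called higher, and their median was 0.00. *Epas1*, which encodes the hypoxia-inducible factor subunit HIF-2α, was counted 427, 355 and 389 times for Ctrl against 644, 764 and 741 for AclyM-KO. The AclyM-KO libraries were all above the Ctrl libraries, and its CPM rose from 29.1 ± 0.348 to 48.0 ± 3.58 (SD, n = 3; log2 0.72, SE 0.0706, adjusted p = 2.98e-06, edgeR). Its 5′ UTR held a match with 1 extra base on the plus strand, shown because the gene was called. No stretch was found in the 1 transcript of *Cdc42bpa* that could be searched, which is not its kept one, or in either transcript of *Cdc14a*.
Epas1, chr17:86753768-86753797: tacaatcctcggCAGTGTcctgagactgta

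*Cdc42bpa*, which encodes a kinase of the actomyosin cytoskeleton, rose from 12.9 ± 2.24 to 20.5 ± 1.27 CPM (SD, n = 3; log2 0.68, SE 0.114, adjusted p = 0.000475, edgeR). *Cdc14a*, a phosphatase gene, had a log2 fold change of 0.20 (adjusted p = 0.494).

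Of 23 genes of iron-sulphur cluster assembly, all were tested and 7 were higher and 0 lower by adjusted p in edgeR, with a median of 0.17, beside 12.4% higher and 12.6% lower among all tested genes. At an unadjusted p under 0.05, 8 were higher and 1 lower, and DESeq2 gave 5 higher and 0 lower by adjusted p. *Hspa9*, the mitochondrial chaperone that hands clusters on, rose from 321 ± 15.4 to 391 ± 24.2 CPM (SD, n = 3; log2 0.28, SE 0.0544, adjusted p = 0.00136, edgeR), and *Nubp2*, a cytosolic scaffold gene, rose as well (log2 0.30, adjusted p = 0.0189). *Mms19*, which delivers clusters to nuclear proteins, had a log2 fold change of −0.18 (adjusted p = 0.0539).

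Of 13 genes of haem synthesis and mitochondrial iron import, 12 were tested, with a median of 0.07. By adjusted p in edgeR, 4 were higher and 1 was lower, beside 12.4% higher and 12.6% lower among all tested genes. DESeq2 gave 3 higher and 1 lower. *Alas1*, the gene of the rate-limiting enzyme, fell (log2 −0.22, adjusted p = 0.00327), whereas *Fech*, which inserts iron into the porphyrin ring (log2 0.27, adjusted p = 0.00564), and *Tmem14c*, a mitochondrial porphyrin transporter (log2 0.35, adjusted p = 0.00138), rose. *Cpox*, another enzyme of the pathway, had a log2 fold change of −0.18 (adjusted p = 0.114). First and last enzymes of the pathway thus differed in direction.

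Of 9 genes of haem breakdown and control of *Hmox1*, all were tested, with a median of −0.01. By adjusted p in edgeR, 3 were higher and 1 was lower, where 12.4% and 12.6% of all tested genes were. DESeq2 gave 2 higher and 1 lower. *Bach1*, the haem-sensing repressor of *Hmox1*, rose from 177 ± 13.3 to 231 ± 10.6 CPM (SD, n = 3; log2 0.38, SE 0.0588, adjusted p = 0.000244, edgeR), while *Hmox1* itself did not pass. *Hmox2*, the constitutive haem oxygenase, fell (log2 −0.17, adjusted p = 0.0151), but not past the test when any AclyM-KO library was left out (0.0518 to 0.0611). *Nfe2l2*, which encodes the activator NRF2, had a log2 fold change of −0.03 (adjusted p = 0.753) and *Blvra*, biliverdin reductase, −0.05 (adjusted p = 0.56).

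Of 9 genes of iron chaperones, ferritin turnover and IRP2 degradation, 8 were tested, with a median of 0.08. By adjusted p, 1 was higher and 1 lower, which is close to the 24.9% of all tested genes that passed in either direction. *Atg7*, an autophagy gene, rose (log2 0.19, adjusted p = 0.00769, edgeR), and the gene that fell was *Fbxl5*, the iron-sensing subunit of the ligase that degrades IRP2 (log2 −0.21, adjusted p = 0.0273, edgeR); both were named after their values were seen, and DESeq2 gave *Fbxl5* an adjusted p of 0.0685. The chaperone genes *Pcbp1* (log2 0.14, adjusted p = 0.0539) and *Pcbp2* (−0.02, 0.789) did not pass, nor did *Tax1bp1*, an autophagy adaptor gene (−0.03, 0.667), or *Herc2*, a ubiquitin ligase gene (0.14, 0.319).

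**Figure D4:**
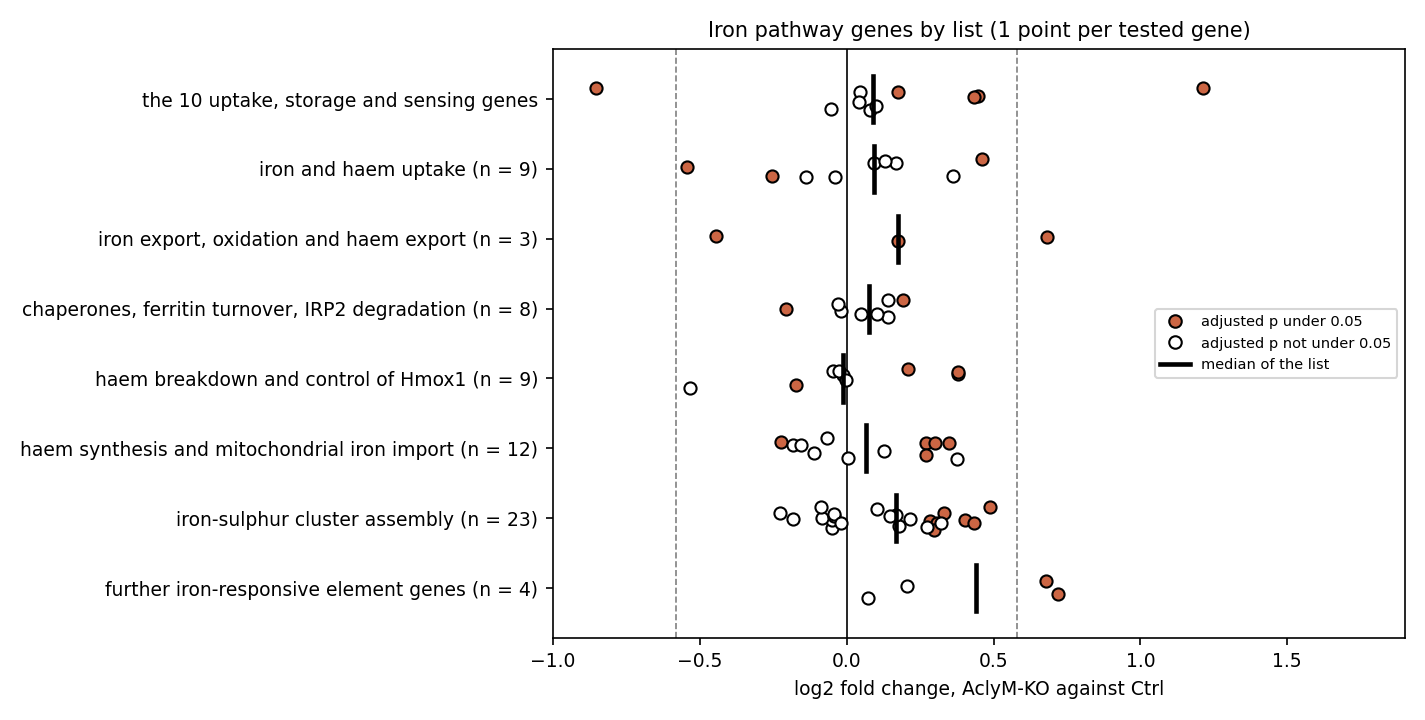
log2 fold changes, AclyM-KO against Ctrl, of the tested genes of each iron list, 1 point per gene, filled where the adjusted p was under 0.05, with the list median as a bar and the limits of 0.58 dashed. The 68 further genes lie closer to 0 than Tfrc at 1.21 and Slc40a1 at −0.85, and those beyond the limits are Cp, Epas1 and Cdc42bpa.

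Total counts on the kept rows were 12151975 to 14739689 in Ctrl and 14745614 to 15587283 in AclyM-KO, so each of the 10 genes had at least 305 counts in every library. The 7 macrophage markers summed to 7270 to 7590 CPM in Ctrl and 6970 to 7340 in AclyM-KO, and *Mertk* among them was called lower. By adjusted p alone *Adgre1* was also higher (log2 0.33), and *Csf1r* (−0.20) and *Itgam* (−0.28) were lower. Erythroid precursors express *Tfrc* strongly, and their markers summed to 0.608 to 1.06 CPM in Ctrl and 0.322 to 0.819 in AclyM-KO, with 5 of 7 at 0; the globin genes among these 5 have near-identical copies that can be lost in counting. Neutrophil markers summed to 12.1 to 14.9 CPM in Ctrl and 19.5 to 21.5 in AclyM-KO, with *S100a8* and *S100a9*, 2 of 8, called higher (*S100a9* not without the third Ctrl library, adjusted p = 0.0728) and *Ly6g* near 0, and their part in the differences of the iron genes was not tested. Dendritic cell, lymphocyte and fibroblast markers each summed to at most 4.09 CPM in every library.

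The 5 genes with CPM of at least 10 whose log2 CPM followed that of *Tfrc* most closely over the 6 libraries were *Mfge8*, *Hvcn1*, *Gadd45a*, *Znrf2* and *Tuba1a*, with Pearson r of 0.997 to 0.999. Their log2 fold changes between the groups were 0.52, 0.40, 0.65, 0.16 and 0.81. The libraries form only a pair of groups, so these coefficients mainly describe the shared difference between the groups.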

How the data were processed

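Libraries of mRNA that keep strand were aligned by the authors to mm10 (STAR 2.5.2b), and raw counts per RefSeq transcript were deposited. The program that counted the reads is not given in the sources used here. Rows were paired with symbols through RefSeq (35440 of 35745 rows) and GENCODE M21 (188), and 117 rows without a gene, with 0.370% to 1.38% of counts, stayed out of library sizes and tests. A read can count on several transcripts, so 1 row per gene, that of largest total, entered the tests. The test was edgeR's quasi-likelihood test (edgeR 4.0.16, R 4.3.3) with TMM scaling, the filterByExpr filter, a single genotype term and Benjamini-Hochberg adjustment. Libraries of a group varied by a common coefficient of 0.0588 beyond counting error. The 10 genes, the iron lists and the markers were chosen with earlier results of these data known. Named list genes are those called and up to 4 more per list with the highest mean CPM. Alternatives were DESeq2 1.42.0 (the study's tool), limma-voom (limma 3.58.1), other scalings, filters, fold change limits and kept rows, a replicate block and the removal of each library. Same-numbered libraries did not deviate together (r of −0.292, 0.0373 and −0.117), so they were not treated as pairs. Values of a few list genes that the rule names were left out. Untreated macrophages, tumours and flow cytometry were not analysed here.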

Additional observations from a re-analysis of the deposited data

How the results depend on the processing

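Under the 16 alternatives run for each of the 10 genes, no direction changed, and *Tfrc* (log2 1.09 to 1.33) and *Slc40a1* (−0.94 to −0.78) kept their calls. *Fth1* (0.41 to 0.47), *Ftl1* (0.41 to 0.45) and *Slc11a2* (0.13 to 0.20) passed by adjusted p except under glmTreat, a test of differences beyond the limit itself, and for *Slc11a2* without the libraries named above. Of the 10 genes, 5 passed without a fold change limit (4 higher), and 1 was called with a limit of 1 (0 lower). Of the listed iron genes, 26 passed without a limit (20 higher, 6 lower), and 0 were called with a limit of 1 or by glmTreat. With each library left out in turn, 2 of the 10 genes were always called and 4 to 5 passed by adjusted p alone, while 3 to 4 listed genes were called (0 to 1 lower) and 18 to 26 passed. *Pcbp2* (−0.035 to 0.001) and *Nfe2l2* (−0.056 to 0.007) turned from below to above 0 without the second Ctrl library, and neither passed the test. *Lrp1* lost its adjusted p in DESeq2 (0.152) and was called lower without the first (log2 −0.69) or the third Ctrl library (−0.66) or the first AclyM-KO library (−0.59). The adjusted p rose above 0.05 for *Flvcr1* without the second Ctrl (0.053), the second AclyM-KO (0.107) or the third AclyM-KO library (0.0793), for *Abcg2* without the second Ctrl (0.0724), the third Ctrl (0.0599), the first AclyM-KO (0.0952) or the second AclyM-KO library (0.101), for *Hmox2* without any AclyM-KO library (0.0518 to 0.0611), for *Nubp2* without the first (0.0731) or the third AclyM-KO library (0.0787) for *Lrp1* without the second AclyM-KO library (0.0677), for *S100a9* without the third Ctrl library (0.0728), for *Znrf2* without any AclyM-KO library (0.0676 to 0.072) or with the replicate block (0.054) and for *Fbxl5* without the third Ctrl (0.0815), the first AclyM-KO (0.112) or the third AclyM-KO library (0.0869), in DESeq2 (0.0685) or with the mean over all its rows (0.0505). It fell under 0.05 without the second Ctrl library for *Steap3* (0.00973), *Herc2* (0.00125) and *Mms19* (0.00595), without the third AclyM-KO library for *Mms19* (0.0378), and without the first Ctrl library for *Pcbp1* (0.027) and *Cpox* (0.0371), as it did for *Pcbp1* with upper-quartile scaling (0.0435) or limma-voom (0.0372) and for *Mms19* without a filter on low counts (0.0255). With the replicate block, 2 of the 10 genes and 3 listed genes were called, with *Tfrc* at 1.225, and no call on the 10 genes changed. Over all tested genes, 358 were called higher and 309 lower, beside 77 and 41 by glmTreat, 145 and 80 with a limit of 1, and 1485 and 1511 without a limit. The causes were not tested beyond the stricter limits themselves, and 3 libraries per group limit what can be seen of small differences.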
